A study of Homo sapiens with 9 samples.

Results

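The genes described here are 8 that belong to the liver X receptor (LXR) pathway of cholesterol efflux: the apolipoprotein genes APOE and APOC1, the receptor genes NR1H3 and NR1H2, and the target genes ABCA1, ABCG1, LPCAT3 and SMPDL3A. They were selected on the FPKM differences between doses that these same libraries had already shown, so every level and difference of a member is a description and not independent evidence. Of the 8, 7 were assembled in at least 1 library, out of 15557 genes in all, and all 7 were among the 12539 genes tested. RNA came from WM3248, a human melanoma cell line, grown in melanoma medium with fetal bovine serum and bovine insulin. Groups of 3 libraries received ARN22089 for 24 h at 0 µM (untreated, DMSO vehicle), 4 µM or 6 µM. ARN22089 is a small molecule made to block binding between CDC42 family GTPases and their effectors. The labels name no genetic change in any group. All 9 libraries come from 1 cell line, and no label says whether libraries of 1 dose grew as separate cultures. The p-values therefore speak only of how far the deposited libraries vary, part of which may be technical.

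LXRα, encoded by NR1H3, and LXRβ, encoded by NR1H2, are nuclear receptors that bind oxysterols. They sit on DNA together with a retinoid X receptor, at pairs of short half-sites with a fixed spacer, and when a ligand binds they switch on genes that move cholesterol out of the cell. ABCA1 and ABCG1 are the pumps of that export, APOE and APOC1 are secreted carriers of lipid, LPCAT3 places polyunsaturated chains into phospholipids and SMPDL3A encodes a secreted phosphodiesterase related to acid sphingomyelinase. APOE and APOC1 are best known from liver, macrophages and glia. Melanoma cells can secrete APOE too, and the secreted protein is known to act on the receptors LRP1 and LRP8.

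APOE and APOC1 are neighbours on the plus strand of chromosome 19 (GRCh38), at 44905796 to 44909393 and 44914325 to 44919346, with 4931 bases between their RefSeq bounds. Their promoters are shown because both genes stood higher after ARN22089, and that of ABCA1 because it was the single member promoter with a match to the LXR pattern while its RNA gave small differences. The sequences are RefSeq's (GRCh38.p14), at chr19:44905546-44905845 (plus strand), chr19:44914422-44914721 (plus strand) and chr9:104928106-104928405 (minus strand), each read 5′ to 3′ in the direction of its gene. Capitals mark GGGCGG or its reverse complement in APOE and APOC1, and in ABCA1 the stretch that matches the LXR pattern on the opposite strand.
APOE: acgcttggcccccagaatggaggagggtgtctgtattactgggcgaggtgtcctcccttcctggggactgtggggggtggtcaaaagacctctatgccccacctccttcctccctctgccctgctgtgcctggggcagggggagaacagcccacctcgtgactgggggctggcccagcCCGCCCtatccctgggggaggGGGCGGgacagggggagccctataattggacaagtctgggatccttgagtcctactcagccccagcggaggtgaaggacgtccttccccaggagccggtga
APOC1: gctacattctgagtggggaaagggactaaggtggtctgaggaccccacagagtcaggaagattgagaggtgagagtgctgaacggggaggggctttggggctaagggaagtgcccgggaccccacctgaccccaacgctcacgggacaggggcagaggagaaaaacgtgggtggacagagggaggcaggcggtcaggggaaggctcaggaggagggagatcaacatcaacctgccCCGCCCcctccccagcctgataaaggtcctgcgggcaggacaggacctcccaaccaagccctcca
ABCA1: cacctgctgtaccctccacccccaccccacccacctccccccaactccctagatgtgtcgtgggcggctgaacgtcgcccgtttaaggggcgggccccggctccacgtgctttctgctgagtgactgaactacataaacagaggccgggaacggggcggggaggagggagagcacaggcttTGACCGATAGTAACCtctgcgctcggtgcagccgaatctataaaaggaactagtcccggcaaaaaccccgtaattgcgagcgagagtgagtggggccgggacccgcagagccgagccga
The LXR pattern searched, on both strands, was a direct repeat: GGTNA, then any 5 bases, then GGTNA again. It was found in 220 of 35116 promoter windows of the same length (0.626%) and in 1 of 11 windows of the members, that of ABCA1, as GGTTACTATCGGTCA starting 69 bases before the RefSeq start. The stricter form, AGGTCA and AGGTCA with any 4 bases between them, was in 7 windows (0.0199%) and in none of the members' windows. The sterol response pattern TCACNCCAC was in 1.13% of windows and in none of the 11. GGGCGG was in 45% of all windows and in 7 of the 11, and CCAAT in 34.6% and in 4 of the 11. The table held windows for APOE (3), APOC1, NR1H3 (4), NR1H2, ABCA1 and LPCAT3. The APOC1 window surrounds the RefSeq start at 44914672, and the assembled APOC1 transcripts began farther upstream, from 44914253 to 44914663. These matches are letters in a window and say nothing of binding, and enhancers farther away were not searched.

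Each deposited file is an assembly of 1 library, so a gene's level here is the summed FPKM (fragments per kilobase, adjusted for how many fragments each library mapped) of the transcripts that share an intron with it. Levels are means ± SD over 3 libraries, and differences are log2 differences of FPKM + 1 with their SE, from 1 limma fit across all genes and libraries. A difference passed where its Benjamini-Hochberg adjusted p, taken over all 12539 genes, was below 0.05. Because an assembler can break a gene into pieces whose FPKM then add up, a consensus exon value is given beside it: the FPKM summed at each exonic base and averaged over those bases that at least 50% of the libraries with the gene assembled. Depth in reads is unknown. Relative depth, from the ratio of coverage to FPKM, ran from 0.802 to 1.34 of the median library, and replicate 3 at 0 µM had an FPKM sum of 1061112 where the other libraries lay between 587999 and 689699. All 10 melanoma and melanocyte markers were assembled, with a summed level of 770 to 1730 FPKM at 0 µM, 1350 to 2440 at 4 µM and 1520 to 2460 at 6 µM. Of 8 leukocyte markers, 7 (PTPRC, CD14, CSF1R, AIF1, TYROBP, CD163 and ITGAM) were not assembled in any library, and CD68 was listed in 1 of 9, a 4 µM library, at 142 FPKM. Of 5 hepatocyte markers, ALB, APOA1 and APOB were not assembled in any library, SERPINA1 was listed in 1, and TTR had a mean of 2.39 FPKM and was at 0 in 1 of 9; their sum was at most 4.49 FPKM in any library. All 6 fibroblast markers were assembled, led by LUM and THY1 with means of 16.7 and 8.08 FPKM, and summed to 14.1 to 46.3 FPKM at 0 µM, 23.3 to 37.2 at 4 µM and 22.4 to 30.9 at 6 µM. Of 4 keratinocyte markers 2 were assembled, with sums of 29.6 to 30.1, 31.4 to 37.4 and 28.9 to 38.8 FPKM. The range of the melanocyte markers thus lay higher at the doses where the apolipoproteins below were higher, though it overlapped with that at 0 µM, and its part in those differences was not tested. S100B, with a mean of 1010 FPKM, led that sum. Of the 10 markers, 8 had a positive log2 difference at 4 µM and 9 at 6 µM. CSPG4 was lower at both doses (-0.23 and -0.36), and S100A1 was lower at 4 µM (-1.74 ± 1.11). In bulk RNA, a change in the number of cells that express a gene cannot be told apart from a change in RNA per cell.

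APOE and APOC1 were about 2 to 3 times as high in treated as in vehicle libraries. At 0 µM, APOE was at 8.78, 14.7 and 11.6 FPKM in replicates 1, 2 and 3. Libraries at 4 µM held 24.7, 29.9 and 21.2 FPKM, and those at 6 µM held 24.1, 24.8 and 24.3 FPKM. Every treated library thus lay above every vehicle library, while the treated doses overlapped and the 3 libraries at 6 µM were nearly equal. The mean went from 11.7 ± 2.95 FPKM to 25.3 ± 4.39 at 4 µM and 24.4 ± 0.332 at 6 µM (SD, n = 3), a ratio of means of 2.16 and 2.09. On the log2 scale these differences were 1.06 ± 0.20 and 1.03 ± 0.20, with 95% intervals of 0.61 to 1.51 and 0.58 to 1.48. Neither passed limma's test (adjusted p = 0.247 at 4 µM and 0.0647 at 6 µM). Between 6 and 4 µM the log2 difference was -0.03 ± 0.20, with an interval of -0.48 to 0.42.

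APOC1, a small apolipoprotein that inhibits lipid transfer and lipase activity in plasma, was at 10.3, 11.8 and 10.9 FPKM at 0 µM. The libraries at 4 µM held 26.5, 15.7 and 29.6 FPKM and those at 6 µM 36.4, 26.8 and 32 FPKM. Again no treated library reached down to the vehicle libraries, but replicate 2 was the lowest library at both treated doses. The vehicle libraries were close together with the summed value only. With the consensus exon value they were at 8.33, 11.8 and 10.9 FPKM, with an SD of 1.79. The mean was 11 ± 0.766 FPKM at 0 µM, 23.9 ± 7.34 at 4 µM and 31.7 ± 4.79 at 6 µM (SD, n = 3), which is 2.18 and 2.89 times the vehicle mean. The log2 difference was 1.01 ± 0.23 at 4 µM (adjusted p = 0.266 by limma) and 1.44 ± 0.23 at 6 µM (adjusted p = 0.0538), the latter just above the threshold. From 4 to 6 µM it was 0.43 ± 0.23, with an interval of -0.11 to 0.96 that includes 0.

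**Figure D1:**
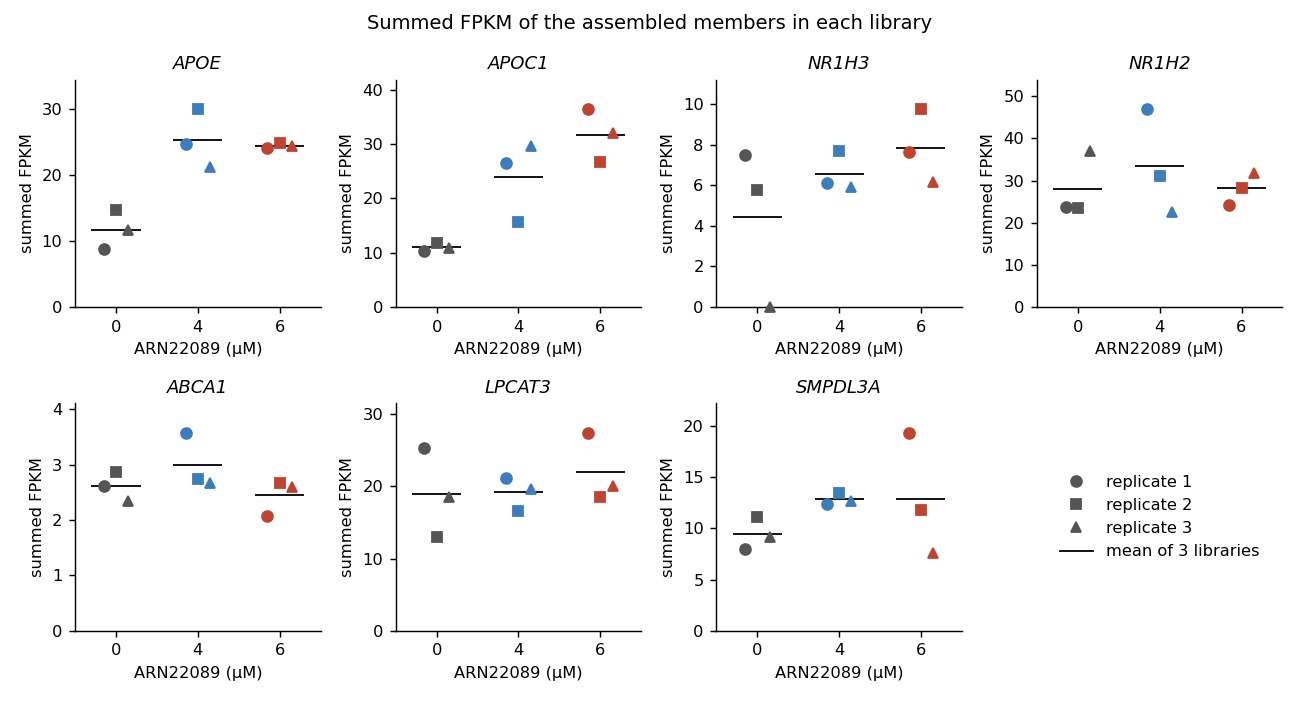
Summed FPKM (vertical axes, each from 0 with its own range) of the 7 assembled members against the ARN22089 dose in µM; each point is 1 library, its shape gives the replicate number, and lines mark means of 3 libraries. All treated libraries lie above all vehicle libraries for APOE and APOC1, and NR1H3 has 1 vehicle library at 0.

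Without replicate 3 at 0 µM, the library with the high FPKM sum, the 6 µM differences were 1.04 for APOE (adjusted p = 0.136 by limma) and 1.43 for APOC1 (adjusted p = 0.106). The comparisons with 0 µM share their vehicle libraries, so the doses are not independent of each other.

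Each library assembled 1 APOE transcript of 4 exons, with a spliced length of 1180 to 1394 bases and a start 14 to 230 bases upstream of the RefSeq start. APOC1 was also 1 transcript per library, of 4 exons except in replicate 2 at 4 µM, where it had 5 and began at 44914253, the most upstream start of all libraries. The library with the 5-exon APOC1 model was also the one with the lowest treated level, 15.7 FPKM, within deposited confidence bounds of 12.98 and 18.35. No assembled transcript joined the genes: between 4859 and 5272 bases lay between the APOE end and the APOC1 start in the 9 libraries. The deposited bounds of APOE did not meet between the highest vehicle library and the lowest treated library. They were 12.94 to 16.43 FPKM in replicate 2 at 0 µM and 18.77 to 23.59 in replicate 3 at 4 µM. The bounds of the 5-exon APOC1 model did meet those of vehicle libraries. These were 6.985 to 13.58 FPKM in replicate 1 at 0 µM and 9.097 to 14.5 in replicate 2.

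With the consensus exon value, both genes passed at 6 µM. APOE had a log2 difference of 1.02 ± 0.18 (adjusted p = 0.0354 by limma) and APOC1 1.41 ± 0.29 (adjusted p = 0.04), and at 4 µM the differences were 1.04 and 0.99 (adjusted p = 0.163 and 0.238). With that value 0 of 7 members passed at 4 µM, where 0.0952% of all genes did, and 0 of 7 between the doses, where 0.0555% did. The sizes hardly differ from those of the summed value. What differs is how many genes pass at 6 µM: 3.97% of 12609 genes with the consensus exon value and 0.311% with the summed value. Without replicate 2 at 4 µM, which shares the estimate of the spread, APOC1 passed at 6 µM with the summed value too (adjusted p = 0.033 by limma). That library held the lowest treated APOC1 level. With any other library left out APOC1 did not pass at 6 µM (adjusted p = 0.0555 to 0.179 by limma).

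Over all members and with the summed value, 0 of 7 passed limma's test at 4 µM, where 0.0798% of all genes did, and 0 of 7 at 6 µM, where 0.311% did. From 4 to 6 µM 0 of 7 passed as well, beside 0.0638% of all genes. Without adjustment, p fell below 0.05 for 2 members, both higher, at each dose against 0 µM, APOE and APOC1, and for 0 between the doses. Over all genes 6.23% were higher and 4.57% lower with an unadjusted p below 0.05 at 4 µM, 7.95% higher and 9.57% lower at 6 µM, and 4.67% differed between the doses. The lists below are to be read beside these shares. The groups did not overlap for 3 of 7 members at 4 µM, all higher, against 9.8% of all genes that were higher without overlap. At 6 µM 2 of 7 were higher without overlap, against 10.9%. Between 6 and 4 µM all 7 overlapped, where 11% of all genes did not. For the members the median difference (log2) came to 0.42 at the lower and 0.34 at the higher dose, where all genes had 0 and -0.03. With the consensus exon value it was 0.26 and 0.13, where all genes had -0.01 and -0.05. Since these comparisons stood behind the list, nothing is read from these shares.

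**Figure D2:**
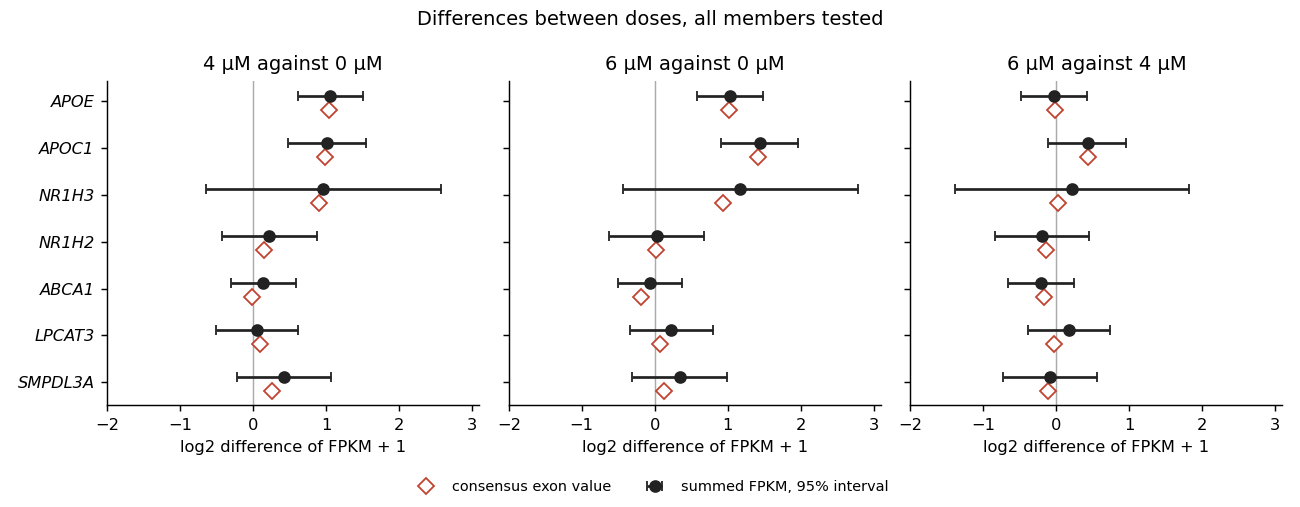
Log2 differences of FPKM + 1 (horizontal axes) of the 7 tested members in the 3 dose comparisons; filled points with bars are the summed value with its 95% interval and open diamonds the consensus exon value. The intervals of APOE and APOC1 lie above 0 in both comparisons with 0 µM, and those of all other members include 0.

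The receptors gave different pictures of reliability. NR1H2, which encodes the LXRβ found in most tissues, was the more abundant receptor transcript and had the highest level per length among the members averaged over all libraries, 29.9 FPKM. Its summed values were 23.7, 23.4 and 37.1 FPKM at 0 µM, 46.9, 31.2 and 22.6 at 4 µM. The 6 µM libraries held 24.2, 28.3 and 31.9 FPKM. The doses overlapped, with log2 differences of 0.22 ± 0.28 and 0.03 ± 0.28 against 0 µM. The highest library, replicate 1 at 4 µM, held 2 assembled pieces of 20.5 and 26.5 FPKM that both start at the 5′ end, and its consensus exon value was 28. The vehicle library at 37.1 FPKM also held 2 pieces, and its consensus exon value was 25.6. On the consensus scale the means were 24.2 ± 1.18, 27.2 ± 4.33 and 25 ± 6.28 FPKM (SD, n = 3). With the summed value the interval at 6 µM ran from -0.62 to 0.67.

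NR1H3, which encodes LXRα, the form typical of liver, fat and macrophages and itself an LXR target in human cells, lay far lower, at 6.28 FPKM over all libraries. Vehicle libraries held 7.51, 5.78 and 0 FPKM, those at 4 µM 6.09, 7.68 and 5.94, and those at 6 µM 7.65, 9.74 and 6.14. The 0 belongs to replicate 3 at 0 µM, where no transcript shared an intron with NR1H3, although the relative depth of that library was 1.3. In every library between 34 and 61 of the 6441 genes with a median of at least 10 FPKM were also listed at 0, so that entry can be a failed assembly. The log2 differences of NR1H3, 0.96 ± 0.70 at 4 µM and 1.17 ± 0.70 at 6 µM, rest on it: without that library they were -0.01 and 0.20. NR1H3 was assembled from 2 RefSeq starts, at 47248895 and 47257996 on chromosome 11. The upstream start carried 5.26 and 3.06 FPKM in vehicle replicates 1 and 2, 4.42, 6.2 and 4.25 at 4 µM, then 3.06, 5.28 and 1.54 for the 6 µM libraries. The downstream start carried 2.25 and 2.72 FPKM, then 1.66, 1.48 and 1.69, then 2.46, 1.23 and 4.61. Replicates 1 and 2 at 6 µM held a further 2.13 and 3.24 FPKM from other starts. Thus the upstream start held more than the downstream one in every library that assembled the gene but replicate 3 at 6 µM, where the order was turned.

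The efflux pumps were low or not assembled. ABCA1 (104781006 to 104928155 on the minus strand of chromosome 9), which loads cholesterol and phospholipid onto apolipoproteins, was at 2.61, 2.87 and 2.34 FPKM at 0 µM. Treated libraries held 3.57, 2.74 and 2.67 FPKM at 4 µM and 2.07, 2.67 and 2.59 at 6 µM. All doses overlapped, and the log2 differences were 0.14 ± 0.19 at 4 µM, with an interval of -0.30 to 0.59, and -0.07 ± 0.19 at 6 µM, with an interval of -0.51 to 0.38. Adding 1 to FPKM compresses differences at levels this low. With the consensus exon value they were -0.02 and -0.19. Each library held 2 to 4 ABCA1 transcripts. Some were separate pieces, but those of replicate 3 at 0 µM and of replicate 1 at 6 µM overlapped. The longest, in replicate 3 at 0 µM, had 49 exons. The most upstream assembled base lay between 24399 and 129638 bases inside the RefSeq start, so no library assembled the exon at the promoter shown above. ABCG1 (chromosome 21, 42199689 to 42297244), the pump that passes cholesterol to mature lipoprotein particles, was not assembled in any of the 9 libraries, and it has no value here.

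LPCAT3 and SMPDL3A, the lipid enzymes, were moderately expressed. LPCAT3 (6976185 to 7018476 on chromosome 12) was at 25.3, 13 and 18.6 FPKM at 0 µM, 21.2, 16.6 and 19.7 at 4 µM. The 6 µM libraries held 27.4, 18.6 and 20.1 FPKM. The doses overlapped, and the log2 differences were 0.05 ± 0.25 and 0.23 ± 0.25. Replicate 1 at 6 µM, the highest library, held 2 transcripts of 21.45 and 5.934 FPKM, and its consensus exon value was 16.6. With the consensus exon value the differences were 0.10 ± 0.32 and 0.07 ± 0.32. SMPDL3A (122789258 to 122809720 on chromosome 6) was at 8.03, 11.1 and 9.11 FPKM at 0 µM and at 12.4, 13.5 and 12.7 at 4 µM. At 6 µM it spread from 7.64 in replicate 3 over 11.8 to 19.3 in replicate 1. It was therefore higher without overlap at 4 µM but not at 6 µM, and the fitted differences were 0.42 ± 0.28 and 0.34 ± 0.28 in log2. Use of the consensus exon value brought replicate 1 at 6 µM down to 12.4 FPKM, and with it the doses overlapped at 4 µM too, with differences of 0.26 and 0.13.

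By level per length, the order at 0 µM was NR1H2 (28.1 ± 7.79 FPKM), LPCAT3 (19 ± 6.15), APOE (11.7 ± 2.95), APOC1 (11 ± 0.766), SMPDL3A (9.41 ± 1.55), NR1H3 (4.43 ± 3.93) and ABCA1 (2.61 ± 0.266), each over 3 libraries. Each gene overlapped with the next in this order, apart from SMPDL3A, which lay above NR1H3 in all libraries. NR1H3 overlapped with ABCA1 only through its library at 0. At 6 µM APOC1 headed the order with 31.7 ± 4.79 FPKM, followed by NR1H2 (28.1 ± 3.85), APOE (24.4 ± 0.332), LPCAT3 (22 ± 4.71), SMPDL3A (12.9 ± 5.93), NR1H3 (7.84 ± 1.81) and ABCA1 (2.45 ± 0.327). Neighbours in this order overlapped, apart from ABCA1, which lay below NR1H3 in all libraries. Both apolipoproteins went from below LPCAT3 in mean level at 0 µM to above it at both treated doses.

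Genes near APOE and APOC1 on chromosome 19 did not pass at either dose (0 of 9 tested by limma). Before adjustment, p was below 0.05 for 2 higher genes at 4 µM (6.23% of all genes) and, at 6 µM, for 2 higher genes (7.95%) and 1 lower gene (9.57%). TOMM40, the gene just upstream of APOE and a pore of the outer mitochondrial membrane, was at 76.4 ± 6.53 FPKM at 0 µM, 79.5 ± 1.28 at 4 µM and 58.8 ± 10.6 at 6 µM (SD, n = 3). Its log2 differences were 0.06 ± 0.15 and -0.38 ± 0.15, and -0.13 and -0.41 with the consensus exon value. CLPTM1, on the other side, was at 71.9 ± 2.63, 75.5 ± 6.21 and 69.2 ± 5.22 FPKM, with differences of 0.07 ± 0.12 and -0.06 ± 0.12. APOC1P1, a pseudogene copy of APOC1 that could share its reads, and the apolipoprotein genes APOC4 and APOC2 were not assembled in any library. The list's median log2 difference was 0.07 at 4 µM and 0.22 at 6 µM. RELB, an NF-kB subunit named after its values were seen, stood apart with 4.68 ± 0.801, 11.5 ± 8.79 and 16.4 ± 4.26 FPKM and a difference of 1.60 ± 0.46 at 6 µM (adjusted p = 0.14 by limma).

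**Figure D3:**
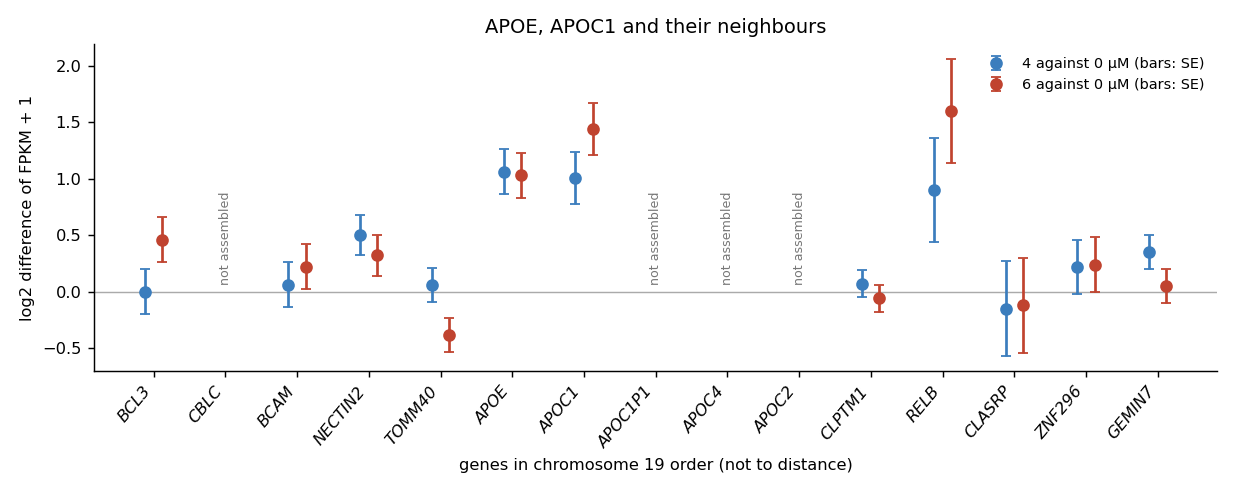
Log2 differences of FPKM + 1 against 0 µM (vertical axis, bars are SE) for APOE, APOC1 and the listed genes around them in chromosome order, which is not drawn to distance; genes with no assembled transcript are marked. APOE and APOC1 lie between 1.01 and 1.44, TOMM40 and CLPTM1 between -0.38 and 0.07. RELB lies at 0.90 at 4 µM and 1.60 at 6 µM, and the remaining assembled genes between -0.15 and 0.50.

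The rest of the pathway was read from lists drawn up with earlier results of these data known. Their counts and medians are therefore a description. Medians below are of the summed value. With the consensus exon value they were -0.13 and -0.09 (4 and 6 µM) for LXR partners, and 0.53 and 0.68 for other LXR targets. Sterol synthesis had 0.78 and 1.02, and sterol handling 0.30 and 0.22. Other apolipoproteins had 0.09 and 0.01, APOE receptors 0.26 and -0.03, and relatives of the enzymes and pumps 0.06 and 0.17. No list other than sterol synthesis held a gene that passed with the summed value. Partners and coregulators of the LXRs (16 tested, among them the retinoid X receptors, the NCOR corepressors and the NCOA coactivators) had medians of 0.06 and -0.09 (log2, at 4 and 6 µM), and 0 passed limma's test. RXRG, the retinoid X receptor with the highest level here, was at 32.4 ± 8.38, 46.3 ± 6.89 and 47.7 ± 14 FPKM (SD, n = 3), and HDAC3, the deacetylase of the NCOR complex, at 28.2 ± 2.48, 33.1 ± 9.99 and 26.9 ± 2.47. Unadjusted, 2 were lower with p below 0.05 at 4 µM (4.57% of all genes), while 1 was higher (7.95%) and 2 were lower (9.57%) at 6 µM. The HDAC3 difference at 4 µM was 0.19, and it turned to -0.17 once consensus exon values were used.

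Other LXR target genes (10 tested of 19 listed, 12 assembled) had a median of 0.55 at 4 µM and 0.87 at 6 µM, with 0 passing limma's test. With an unadjusted p below 0.05, 4 were higher at each dose, where 6.23% and 7.95% of all genes were. Several of them are targets of the sterol regulator SREBP as well. APOD, an apolipoprotein of the lipocalin family and the most abundant of the list, was at 274 ± 58.7 FPKM at 0 µM, 410 ± 119 at 4 µM and 537 ± 112 at 6 µM (SD, n = 3), with a log2 difference of 0.96 ± 0.27 at 6 µM (adjusted p = 0.134 by limma). SCD, the desaturase that makes monounsaturated fatty acids, was at 178 ± 48.2, 325 ± 64.7 and 397 ± 65.8 FPKM, a difference of 1.18 ± 0.25 at 6 µM (adjusted p = 0.0757, and 0.04 with the consensus exon value). Outside the naming rule, SREBF1, an LXR target that encodes SREBP1, was at 28.9 ± 7.98, 45.5 ± 1.14 and 50.3 ± 11.2 FPKM. MYLIP, whose product marks the LDL receptor for breakdown, was at 10.3 ± 3.28, 15.3 ± 5.65 and 12.9 ± 2.54 FPKM. The sign of its 6 µM difference turned from 0.32 to -0.29 with the consensus exon value.

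The sterol synthesis genes, which make the precursors of LXR ligands, had medians of 0.76 and 1.02 over 18 tested genes. In this list 0 passed at 4 µM (15 were higher with p below 0.05 before adjustment, against 6.23% of all genes) and 1 rose at 6 µM with the summed value, MVD, a mevalonate pathway enzyme with 24.3 ± 6.5 FPKM in vehicle and 75.4 ± 11.7 in 6 µM libraries (SD, n = 3). Its difference was 1.62 ± 0.25 in log2 (adjusted p = 0.0495 by limma). FDPS, which makes farnesyl diphosphate, had 1.06 ± 0.18 (adjusted p = 0.0571) and FDFT1, which makes squalene, 1.16 ± 0.20 (adjusted p = 0.0571). At 6 µM 15 were higher with an unadjusted p below 0.05 by limma, against 7.95% of all genes. With the consensus exon value 10 of the 18 rose at 6 µM. Of all 12609 genes 3.97% passed there in either direction, 191 genes higher and 310 lower. The direction of this list was known before it was drawn up. Genes of oxysterol and sterol handling (15 tested) had medians of 0.41 and 0.39, and 0 passed limma's test, with an unadjusted p below 0.05 for 4 higher genes at each dose (6.23% and 7.95% of all genes) and 1 lower gene at 6 µM (9.57%). NPC2, the lysosomal cholesterol carrier, was at 166 ± 32.3, 238 ± 42.3 and 317 ± 77.1 FPKM (SD, n = 3).

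**Figure D4:**
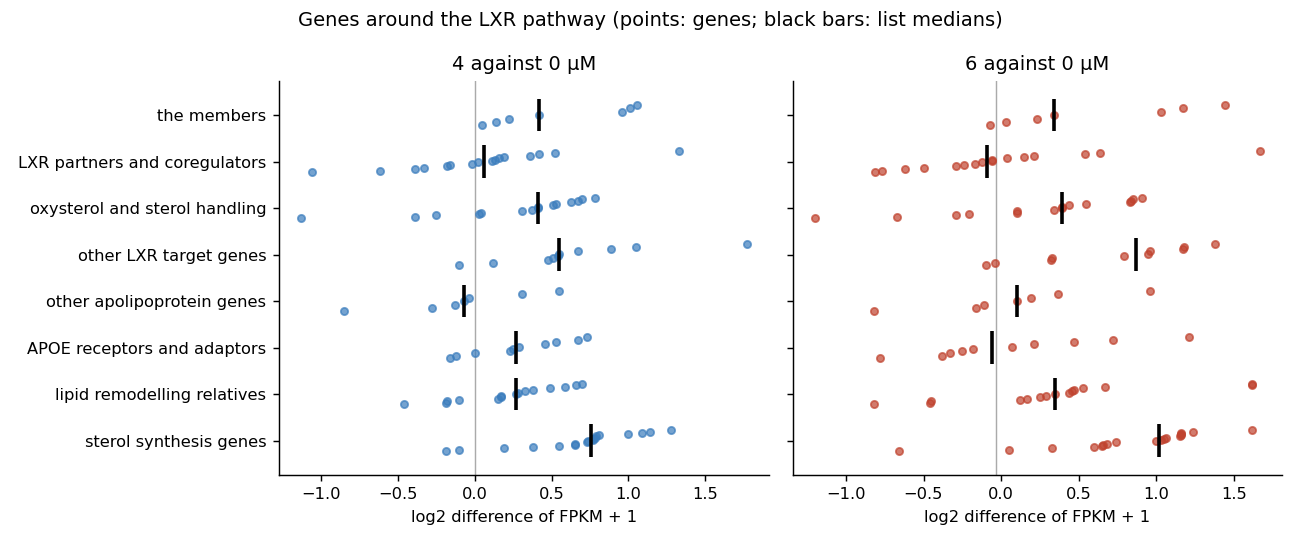
Log2 differences of FPKM + 1 against 0 µM (horizontal axes) for every tested gene of each list, at 4 µM on the left and 6 µM on the right; points are genes, black bars list medians and the grey line the median of all genes. Sterol synthesis genes have medians of 0.76 and 1.02, partners and coregulators of the LXRs 0.06 and -0.09.

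Apolipoprotein genes other than the members were mostly not assembled: 8 of 20 had a transcript in any library and 7 were tested. Their median was -0.07 at 4 µM and 0.10 at 6 µM. By limma 0 passed, and the unadjusted p was below 0.05 for 0 genes at 4 µM and for 2 higher genes at 6 µM (7.95% of all genes). APOD is the one given above, and APOO, a mitochondrial protein despite its name, was at 25.1 ± 4.87, 30.9 ± 1.23 and 32.4 ± 1.54 FPKM (SD, n = 3). Among receptors and adaptors for APOE (10 tested), the medians were 0.27 and -0.06 and 0 passed limma's test. The unadjusted p was below 0.05 for 3 higher genes at each dose, beside 6.23% and 7.95% of all genes. SCARB1, a receptor for high-density lipoprotein, was at 185 ± 55.5, 297 ± 12.8 and 297 ± 26.6 FPKM, and LRPAP1, a chaperone of LDL receptor relatives, at 152 ± 45.8, 216 ± 50.6 and 152 ± 85.7.

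LRP1 and LRP8, named for their role and after their values were seen, are the APOE receptors mentioned at the outset. LRP1 was at 8.18 ± 2.24, 13.5 ± 2.9 and 20.1 ± 4.15 FPKM (SD, n = 3), with 1.21 ± 0.25 as its 6 µM difference in log2, which became -0.17 with the consensus exon value. LRP8 was at 10.5 ± 2.57, 10.9 ± 4.91 and 10.9 ± 1.85 FPKM. Relatives of the lipid enzymes and pumps (15 tested) had medians of 0.27 and 0.35, and 0 passed limma's test with the summed value. Unadjusted p-values lay below 0.05 for 2 higher genes at 4 µM (6.23% of all genes), and at 6 µM for 5 higher genes (7.95%) and 1 lower gene (9.57%). ABCA5, a relative of ABCA1, passed at 6 µM with the consensus exon value (adjusted p = 0.0335). SMPD1, the acid sphingomyelinase, was at 43.2 ± 5.6, 48.6 ± 0.128 and 48.7 ± 4.4 FPKM, and LPCAT2, an acyltransferase of the same reaction as LPCAT3, at 24.8 ± 4.25, 40.9 ± 5.83 and 30.1 ± 8.33. The LPCAT2 differences, 0.70 and 0.25 with the summed value, turned to -0.25 and -0.17 with the consensus exon value.

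The genes whose levels across the 9 libraries were most like those of each apolipoprotein were looked up among 10694 other genes above 0 in every library, by Pearson's r of log2(FPKM + 1), as a description with no p. For APOE these were HSPA2 (r = 0.976), a chaperone gene, TNFRSF14 (r = 0.974), a receptor of the TNF receptor family, and PANX1 (r = 0.971), a membrane channel gene. For APOC1 they were GSE1 (r = 0.978), MAFF (r = 0.966) and IRF2 (r = 0.96), the last 2 of them transcription factor genes. The lists share no gene. APOE and APOC1 had r = 0.763 with each other over the 9 libraries, which includes the difference between doses. By rank (Spearman's rho) their correlation was 0.483. For the other members the highest values were 0.958 for NR1H3 (CDK11A, then GSTO1 and NDUFA3), 0.91 for NR1H2 (ENSG00000287414, then IKZF4 and ASMTL), 0.9 for ABCA1 (SRSF11, MOCS2-DT and TAFA3), 0.959 for LPCAT3 (CARS1, GARS1 and PSMB3) and 0.937 for SMPDL3A (MTO1, RAP1GAP and GTF2F2).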

How the data were processed

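RNA of 9 poly-A selected libraries of WM3248 cells was measured, 3 per ARN22089 dose. Per the submitters' processing notes, the authors used Cufflinks 2.2.1, TopHat2 2.1 with Bowtie2 2.2.7, Trimmomatic, R 4.0.3 and SAMtools 1.9, and each deposited file is 1 library's Cufflinks assembly, whose FPKM values stand in the attribute text. Other quantities of the deposited files, such as coverage, served only for relative depth. Those notes name GRCh37, but 732 transcripts lie on scaffolds named only in GRCh38. Introns were therefore matched to the GRCh38 locations that GENCODE v44 records for its exons, and 97.3% of 193769 spliced transcripts shared an intron with a gene. Single-exon transcripts counted only where at least 50% lay in exons of 1 gene never assembled with introns. Strand came from splice sites, so antisense and overlapping genes are uncertain.

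Gene sums with a mean of at least 1 FPKM were tested as log2(FPKM + 1) in limma 3.58.1 (R 4.3.3, trended prior, 6 residual degrees of freedom), with naming in Python 3.11.15 and pandas 2.3.3. Adding 1 understates changes of low genes. The script was tested on simulated data. Members and lists were chosen with earlier results of these data known. From each list, genes that passed and the 2 with the highest mean were named, except 1 gene that is not reported here. For likeness, the 3 highest correlations were taken. Replicate numbers were not taken to pair libraries across doses. A block on the number is an alternative, beside another pseudocount, no filter, other scalings, the consensus exon value, other naming and leaving out each library.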

Additional observations from a re-analysis of the deposited data

How the results depend on the processing

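With 0.1 as the pseudocount, no filter, TPM or median-centred scaling, the replicate block, or transcripts named by intron length (chosen after seeing the data), 0 members passed in any comparison. With the consensus exon value 2 passed at 6 µM, APOE and APOC1, and 2 also with that value and the replicate block (chosen after seeing the data). The block changed no call of a member. Equal replicate numbers carry the same date-like mark in the labels, whose meaning is not given, and were not taken as pairs: deviations from dose means correlated between -0.0183 and 0.125 for equal numbers and between -0.103 and 0.0208 for others, and 5 of 9 libraries correlated best with their own number at both other doses. Between 4 and 6 µM, equal numbers gave 0.104, 0.108 and 0.125, and all other pairs were negative, from -0.103 to -0.00217. Leaving out each library in turn gave 0 to 1 at 6 µM, the 1 being APOC1 without replicate 2 at 4 µM, and 0 in both other comparisons. Over 17 alternatives the log2 difference at 6 µM ran from 1.34 to 1.75 for APOC1 (adjusted p = 0.033 to 0.179) and from 0.85 to 1.33 for APOE (0.0309 to 0.203), positive in 17 of 17 for each. TPM raised the median difference of all genes to 0.32 at 4 µM and 0.24 at 6 µM, and gave the upper ends of both ranges. NR1H2, ABCA1, LPCAT3 and NR1H3 turned sign under at least 1 alternative at 4 µM. In the fit over all genes the count at 6 µM was 39 as reported, 501 with the consensus exon value, 640 with that value and the block, 4 with the block, 16 with TPM, and 15 to 73 without 1 library. At 4 µM the count of 10 became 3 with the block, and 7 to 29 without 1 library. Depth in reads is unknown, so no counting limit can be given for ABCG1.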
